A study of Mus musculus with 9 samples.

Results

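The HOX genes of the mouse were followed in neural crest cells, as a readout of the axial level of those cells. All genes of the table whose symbol is Hoxa, Hoxb, Hoxc or Hoxd with a number were taken, which gave 39 of 33495 genes. In the expression table, 30 of the 39 had a level in FPKM (fragments per kilobase of transcript, scaled to depth) in all 3 groups, out of 17757 genes that did. Hoxd11 had an FPKM value in mutant cells alone, and 8 members were not measured. The rule used the symbols alone and no measured value.

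RNA was sequenced from genetically labelled neural crest cells sorted from C57BL/6 embryos at E9.5. Neural crest cells leave the dorsal neural tube, migrate and form peripheral neurons, glia, pigment cells and part of the facial skeleton. In each embryo the head was cut off just above the first branchial arch and the tail below the hindlimb, so the explant began at the arches and ran through the trunk. Explants recovered for 1 h and were then cultured for 12 to 15 h. The groups were a neural crest conditional mutant of Mef2c with 10 µM endothelin-1 (ET-1), wild type with 10 µM ET-1, and wild type with phosphate-buffered saline (PBS), with 3 samples in each. Mef2c encodes a MADS-box transcription factor, and ET-1 is a peptide ligand of endothelin receptors on crest cells. The sources used here do not give the recombinase that deletes Mef2c, the allele of the label, or whether a sample was an embryo or a pool. No mutant cells with PBS were analysed here, so the effect of ET-1 was measured in wild type alone.

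HOX genes encode homeodomain transcription factors and lie in 4 clusters. Within a cluster, genes at the 3′ end (low paralog numbers) are switched on early and reach far forward, to the hindbrain, while genes at the 5′ end (high numbers) are switched on late and stay in the posterior trunk and tail. The set of HOX genes that a crest cell carries therefore records the axial level from which it came: crest of the first arch carries none, crest of the second arch carries Hoxa2, and trunk crest carries central and thoracic members. In build mm9 the HoxA cluster spanned chr6:52105366-52210796, HoxB chr11:96055630-96229570, HoxC chr15:102751562-102867272 and HoxD chr2:74506367-74603200.

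HOX paralogs are near copies in the part that reads DNA, which bears on how a short read can be assigned. The 36 bases around the recognition helix of the homeodomain are shown for 2 genes of paralog 9, which held the largest share of the HOX level in all 3 groups, and for 2 genes of paralog 13, which were not measured. They were read from GENCODE M21 protein-coding transcripts, sense strand, and capitals mark bases unlike Hoxb9.
Hoxb9: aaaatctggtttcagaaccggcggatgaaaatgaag
Hoxc9: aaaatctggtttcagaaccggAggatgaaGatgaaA
Hoxb13: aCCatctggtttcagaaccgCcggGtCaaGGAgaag
Hoxd13: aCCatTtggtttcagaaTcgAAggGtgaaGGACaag
Hoxc9 differed from Hoxb9 at 3 bases, and 0 of its codons encoded another amino acid. Hoxb13 differed at 8 bases and Hoxd13 at 11, and in each 3 codons encoded another amino acid. Longer runs were seldom shared between clusters: 5 of the 30 measured members had runs of 50 bases in common with a HOX gene of another cluster, at most 0.364% of their runs. Runs shared with any other gene, on either strand, were more frequent for some members, at 60.3% for Hoxd3, 51.4% for Hoxb3 and 46.8% for Hoxd4.

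The clusters also hold microRNA genes of the miR-10 and miR-196 families, and both families are known to repress HOX messages. Their mature sequences are shown because a model of each family was measured beside the HOX genes; they come from RefSeq (GRCm38.p6), and capitals mark the seed, bases 2 to 8, with which a microRNA pairs to its targets.
mmu-miR-10a-5p: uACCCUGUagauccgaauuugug
mmu-miR-10b-5p: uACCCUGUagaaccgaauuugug
mmu-miR-196a-5p: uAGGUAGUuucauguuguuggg
mmu-miR-196b-5p: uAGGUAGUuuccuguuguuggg
The 2 miR-10 sequences share a seed, and so do the 2 of miR-196. In GRCm38.p6, miR-10b-5p lies in HoxD at chr2:74726074-74726096 and miR-10a-5p in HoxB at chr11:96317186-96317208, both on the plus strand.

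The table gave a single FPKM value per group, so no level or ratio has a replicate error. The pooled depth behind the values came to 46930101 reads in mutant cells, 19801230 in ET-1 wild type and 21507319 in PBS wild type. It was recovered from 1296 genes with a single exon, whose values fell within 0.02 of a whole number of reads in 92.4% to 92.8% of cases. Intervals given here are 95% intervals that cover the counting error of pooled reads. They hold nothing of the spread between embryos, and PCR copies are not independent molecules. Mef2c itself stood at 10.1 FPKM in mutant cells, 25.2 in ET-1 wild type and 7.71 in PBS wild type. From the authors' deposited table, with Benjamini-Hochberg adjustment, p was 6.52e-11 for the mutant against ET-1 wild type and 5.44e-12 for ET-1 against PBS. The value covers the whole gene model, and the deleted exons could not be read apart.

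The crest label was checked against marker genes. Sox10, a crest and glial transcription factor, stood at 70.9 FPKM in mutant cells, 61.0 in ET-1 wild type and 35.7 in PBS wild type, and all 10 crest markers were measured. Twist1 and Prrx1, which mark crest of facial mesenchyme, were low, with Twist1 at 0.936 FPKM in mutant cells, 1.28 in ET-1 wild type and 1.496 in PBS wild type. Sox2, a neural progenitor factor, stood at 37.0 FPKM in mutant cells, 40.3 in ET-1 wild type and 38.7 in PBS wild type, and 4 of 8 neural tube markers were measured. Summed neural tube markers came to 71.7 FPKM in mutant cells, 74.2 in ET-1 wild type and 78.3 in PBS wild type, and Sox1, Olig2, Nkx2-2 and Nkx6-1 were not measured. Most of each sum came from Sox2 and Neurog2, and how far it reflects neural tube cells was not tested. Summed somite markers came to 58.1 FPKM in mutant cells, 47.9 in ET-1 wild type and 43.0 in PBS wild type, mostly from Pax3, which crest also expresses. Limb and lateral mesoderm markers summed to under 1 FPKM in every group, with Tbx4 and Tbx5 not measured. Endoderm and epithelial markers summed to 2.41 FPKM in mutant cells, 3.44 in ET-1 wild type and 4.79 in PBS wild type. Endothelial markers summed to 0.923 FPKM in mutant cells, 1.11 in ET-1 wild type and 1.49 in PBS wild type. Erythroid markers summed to 11.5 FPKM in mutant cells, 22.1 in ET-1 wild type and 25.4 in PBS wild type, and 0 of the 3 measured were called in either comparison. Among all genes tested, 1.18% were called higher and 3.75% lower in the mutant, and 0.390% and 0.143% with ET-1, so 0 of 3 says little. Neural tube and somites carry HOX genes of their own, and the part of such cells in the HOX levels was not tested. In such bulk samples, fewer cells of a type and less RNA per cell cannot be told apart.

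The HOX genes measured ran from paralog 1 to paralog 10 without a gap, and paralogs 11, 12 and 13 were not measured in wild type. All 8 anterior members (paralogs 1 to 3) and all 15 central members (4 to 8) had FPKM in every group, against 7 of 16 posterior members (9 to 13). By cluster, 9 of 11 HoxA, 9 of 10 HoxB, 6 of 9 HoxC and 6 of 9 HoxD members were measured. Hoxa13, Hoxc11, Hoxc12, Hoxc13 and Hoxd12 were listed at 0 in all 3 groups. Hoxa11, Hoxb13 and Hoxd13, with Hoxd11 in wild type, were listed as whole numbers of at most 7 with a p of 1, which are not FPKM. Hoxd11 stood at 0.102 FPKM in mutant cells, whose pooled depth was 2.37 times that of ET-1 wild type, and no level of it can be compared.

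**Figure D1:**
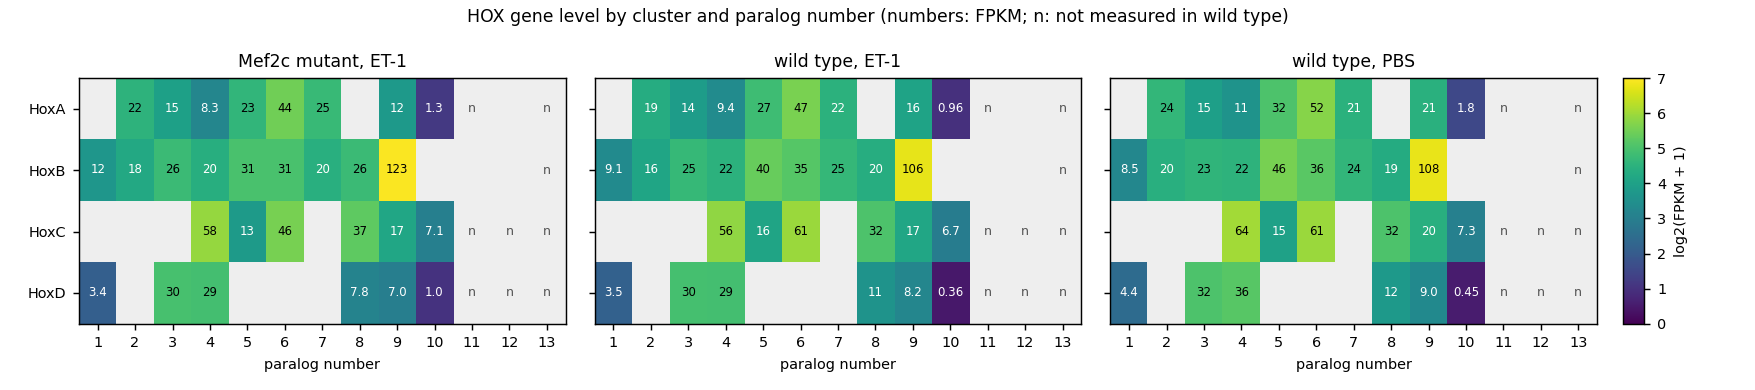
Level of HOX genes by cluster (rows) and paralog number (columns) in Mef2c mutant cells with ET-1, wild type with ET-1 and wild type with PBS; the colour is log2(FPKM + 1), the printed number is FPKM, n marks members not measured in wild type, and blank cells hold no value shown here. In all 3 panels the filled cells stop at paralog 10, and Hoxb9 is the brightest cell.

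Measured members were abundant. Their median was 20.1 FPKM in mutant cells, 19.3 in ET-1 wild type and 21.1 in PBS wild type, and 27 of 30 lay above the median gene of their group. The median gene stood at 6.70 FPKM in mutant cells, 6.56 in ET-1 wild type and 6.47 in PBS wild type. Of the 29 pairs of neighbours in the order of levels, 18 had overlapping counting intervals in mutant cells, 19 in ET-1 wild type and 18 in PBS wild type, so most neighbouring ranks cannot be told apart even on counting error.

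Among the anterior members, paralog 1 acts in hindbrain segments. Hoxb1, which sets the identity of the fourth hindbrain segment, stood at 11.9 FPKM in mutant cells, 9.11 in ET-1 wild type and 8.45 in PBS wild type. Hoxd1 was the lowest of the anterior members, at 3.36 FPKM in mutant cells, 3.47 in ET-1 wild type and 4.42 in PBS wild type. Hoxb1 lay above the median gene of every group and Hoxd1 below it. Hoxa2, the selector gene of the second arch, stood at 22.0 FPKM in mutant cells, 19.1 in ET-1 wild type and 23.8 in PBS wild type. Hoxb2 stood at 17.5 FPKM in mutant cells, 16.5 in ET-1 wild type and 20.2 in PBS wild type. Paralog 3 patterns the third arch and its derivatives such as the thymus. Hoxa3 stood at 14.9 FPKM in mutant cells, 13.7 in ET-1 wild type and 14.5 in PBS wild type. Hoxb3 stood at 26.2 FPKM in mutant cells, 24.7 in ET-1 wild type and 22.9 in PBS wild type. Hoxd3 was the highest anterior member, at 30.4 FPKM in mutant cells, 29.8 in ET-1 wild type and 32.0 in PBS wild type. Levels of Hoxd3, Hoxb3, Hoxd4, Hoxb2, Hoxa3 and Hoxa7 are uncertain in origin, because over 20% of their exon bases lie in exons of another gene in GENCODE M21 (62.8% for Hoxd3) and strand-specific counting is not stated.

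Central members, which were 15 of the 30 measured, gave the larger part of the HOX level. Paralog 4 marks the hind end of the hindbrain and the neck. Hoxa4 stood at 8.34 FPKM in mutant cells, 9.44 in ET-1 wild type and 11.0 in PBS wild type. Hoxb4 stood at 19.9 FPKM in mutant cells, 21.7 in ET-1 wild type and 21.9 in PBS wild type. Hoxc4 was among the 3 highest HOX genes of every group, at 57.9 FPKM in mutant cells, 56.3 in ET-1 wild type and 64.2 in PBS wild type. Hoxd4, whose exons overlap those of Hoxd3, stood at 29.0 FPKM in mutant cells, 28.8 in ET-1 wild type and 35.5 in PBS wild type.

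Paralogs 5 and 6 pattern the neck and upper thorax, and all 3 members of each had lower FPKM in mutant cells than in ET-1 wild type. Hoxa5 stood at 23.5 FPKM in mutant cells, 27.1 in ET-1 wild type and 32.0 in PBS wild type. Hoxb5, which acts in enteric crest, stood at 30.6 FPKM in mutant cells, 40.4 in ET-1 wild type and 46.2 in PBS wild type. Hoxc5 stood at 12.9 FPKM in mutant cells, 16.1 in ET-1 wild type and 15.0 in PBS wild type. Hoxc5 had more FPKM with ET-1 than with PBS, unlike Hoxa5 and Hoxb5. Paralog 6 patterns vertebrae of the upper thorax. Hoxa6 stood at 43.7 FPKM in mutant cells, 47.4 in ET-1 wild type and 52.2 in PBS wild type. Hoxb6 stood at 30.9 FPKM in mutant cells, 34.9 in ET-1 wild type and 35.9 in PBS wild type. Hoxc6, a marker of forelimb-level motor neurons in the spinal cord, stood at 45.9 FPKM in mutant cells, 60.6 in ET-1 wild type and 61.2 in PBS wild type. The 2 wild-type values of Hoxc6 lay close together and the mutant value below both.

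Paralogs 7 and 8 act at thoracic level. Hoxa7 stood at 25.1 FPKM in mutant cells, 21.6 in ET-1 wild type and 21.3 in PBS wild type. Hoxb7 stood at 20.4 FPKM in mutant cells, 24.5 in ET-1 wild type and 23.5 in PBS wild type. The 2 genes of paralog 7 thus stood in opposite order, with Hoxa7 higher and Hoxb7 lower in mutant cells than in either wild-type group. Hoxb8 stood at 26.3 FPKM in mutant cells, 19.5 in ET-1 wild type and 18.9 in PBS wild type. Hoxc8, which patterns thoracic vertebrae and brachial motor neurons, stood at 37.3 FPKM in mutant cells, 32.2 in ET-1 wild type and 31.9 in PBS wild type. Hoxd8 stood at 7.76 FPKM in mutant cells, 11.0 in ET-1 wild type and 12.5 in PBS wild type. Hoxb8 and Hoxc8 were thus higher, and Hoxd8 lower, in mutant cells than in either wild-type group.

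Among the posterior members, paralog 9 patterns the lower thorax. Hoxb9 was the highest HOX gene in every group, at 123 FPKM in mutant cells, 106 in ET-1 wild type and 108 in PBS wild type. Hoxa9 stood at 12.5 FPKM in mutant cells, 15.8 in ET-1 wild type and 20.8 in PBS wild type. Hoxc9, which fixes thoracic motor neuron identity, stood at 16.7 FPKM in mutant cells, 16.7 in ET-1 wild type and 20.4 in PBS wild type. Hoxd9 was the lowest of the 4, at 7.00 FPKM in mutant cells, 8.24 in ET-1 wild type and 9.05 in PBS wild type. Paralog 10 acts at lumbar level, where it suppresses ribs. Hoxc10 was its highest member, at 7.14 FPKM in mutant cells, 6.69 in ET-1 wild type and 7.31 in PBS wild type. Hoxa10 stood at 1.25 FPKM in mutant cells, 0.963 in ET-1 wild type and 1.84 in PBS wild type. Hoxd10 was the lowest measured member in all 3 groups, at 1.05 FPKM in mutant cells, 0.355 in ET-1 wild type and 0.453 in PBS wild type. Paralog 9 summed to 159 FPKM in mutant cells, 147 in ET-1 wild type and 158 in PBS wild type. Paralog 10 summed to 9.44 FPKM in mutant cells, 8.00 in ET-1 wild type and 9.60 in PBS wild type. Most of the paralog 9 sum came from Hoxb9, and HoxB holds no paralog 10 gene, so the 2 sums overstate the step. Within HoxA, HoxC and HoxD, the paralog 10 gene was below the paralog 9 gene in every group, least so in HoxC.

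**Figure D2:**
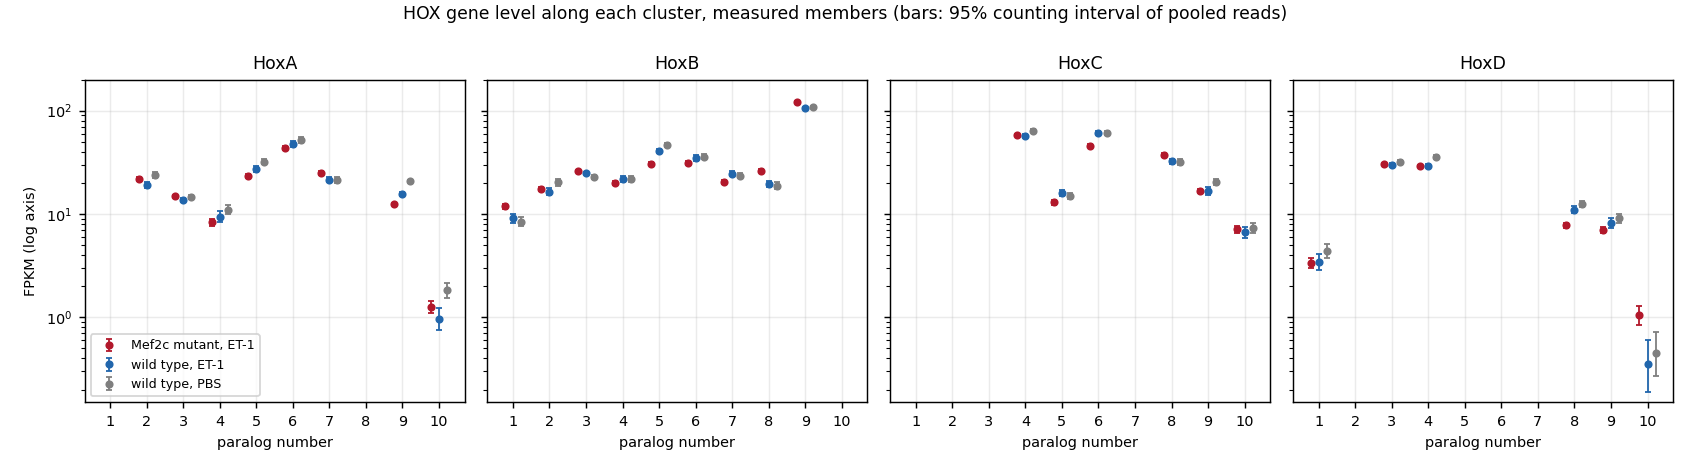
Level of measured HOX genes along their clusters, with paralog number on the horizontal axis and FPKM on a log axis; points are the value of each group (red, Mef2c mutant with ET-1; blue, wild type with ET-1; grey, wild type with PBS) and bars are 95% counting intervals. Hoxb9 lies above all others at 106 to 123 FPKM, and Hoxd10 is the lowest point of every group.

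Summed over all measured members, HOX level was 723 FPKM in mutant cells, 732 in ET-1 wild type and 785 in PBS wild type. Central members made up 58.1% of it in mutant cells, 61.7% in ET-1 wild type and 61.5% in PBS wild type. Anterior members made up 18.7% in mutant cells, 17.2% in ET-1 wild type and 17.1% in PBS wild type. Posterior members made up 23.3% in mutant cells, 21.1% in ET-1 wild type and 21.4% in PBS wild type, nearly all from paralog 9. HoxB was the largest cluster, with 42.4% in mutant cells, 40.6% in ET-1 wild type and 39.0% in PBS wild type, and HoxD the smallest, with 10.9% in mutant cells, 11.2% in ET-1 wild type and 12.0% in PBS wild type. The measured members were 15 central, 8 anterior and 7 posterior, so class size enters the shares. Most of the anterior sum came from Hoxd3, Hoxb3, Hoxb2 and Hoxa3, whose levels are uncertain in origin as given above. Hoxd3 and Hoxd4 also share exon bases, so the same stretch may enter both the anterior and the central sum. These shares have no replicate error, and the posterior one depends on where the class begins: paralogs 10 to 13 alone made up 1.31% in mutant cells, 1.09% in ET-1 wild type and 1.22% in PBS wild type.

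**Figure D3:**
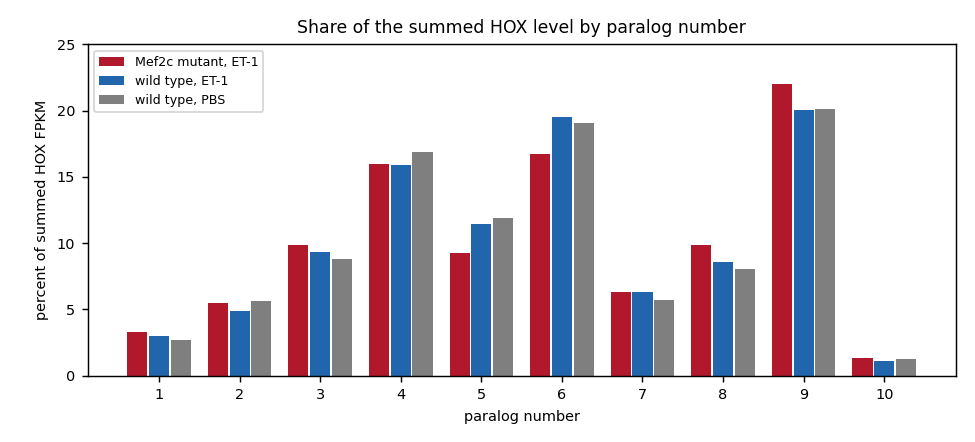
Share of the summed HOX level, in percent of FPKM, by paralog number; bars from left to right are Mef2c mutant with ET-1, wild type with ET-1 and wild type with PBS. The mutant bar is the lowest of the 3 at paralogs 5 (9.27%) and 6 (16.7%) and the highest at paralogs 1 (3.31%), 3 (9.89%), 8 (9.87%), 9 (22.0%) and 10 (1.31%).

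The first comparison asks which genes depend on Mef2c when ET-1 is present. No HOX gene passed the test: 0 of 30 members were called, where 1.18% of 15459 genes were called higher and 3.75% lower in the mutant at an adjusted p under 0.05. The smallest adjusted p of a member was 0.0888, for Hoxc6. At an unadjusted p under 0.05 in the authors' deposited table, 4 members were lower and 0 higher, which is 13.3% and 0% of the members, against 7.12% and 4.45% of all genes tested. FPKM was higher in the mutant for 16 members and lower for 14, or 53.3% and 46.7%, near the 57.2% and 42.8% of all genes. The median log2 fold of members was 0.0055, against 0.041 over all measured genes.

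The 4 members with an unadjusted p under 0.05 came from 4 clusters and from paralogs 5 to 9. Hoxc6 in mutant cells was at 0.758 of its level in ET-1 wild type (counting interval 0.716 to 0.802, from 3429 pooled reads in mutant cells and 1909 in ET-1 wild type). Its p in the authors' deposited table was 0.0050. Hoxb5 had a ratio of 0.757 (0.714 to 0.802), a deposited p of 0.0083 in the authors' deposited table, and p = 0.133 with Benjamini-Hochberg adjustment. Hoxd8 had the lowest ratio of all members, 0.706 (0.637 to 0.783), a p of 0.0147 in the authors' deposited table, and p = 0.200 with Benjamini-Hochberg adjustment. Hoxa9 had a ratio of 0.792 (0.751 to 0.836) and p = 0.367 with Benjamini-Hochberg adjustment of the authors' deposited table. At most 3.59% of the exon bases of each of the 4 genes lie in exons of another gene.

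In the other direction, Hoxb8 and Hoxd10 had the highest ratios of mutant over ET-1 wild type. Hoxb8 had a ratio of 1.35 (1.24 to 1.47) and p = 0.486 with Benjamini-Hochberg adjustment of the authors' deposited table. Hoxd10 had a ratio of 2.95, the one member beyond 1.5-fold, on 91 pooled reads in mutant cells against 13 in ET-1 wild type. Its counting interval was 1.64 to 5.76, and p was 0.647 with Benjamini-Hochberg adjustment of the authors' deposited table. Among the 27 members with at least 5 FPKM in either group, ratios ran from 0.706 to 1.35. The counting interval of the ratio lay above 1 for 9 members and below 1 for 10, or 30% and 33.3%, where 36.9% and 24.3% of all genes did so. A counting interval away from 1 was thus common among all genes and is no call. Most HOX genes also stood above the median gene, where more reads make narrower intervals, so the 2 sets are not at like depth.

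By axial class, anterior members were higher in the mutant in 6 of 8 cases (median log2 fold 0.085), central members lower in 10 of 15 (median -0.16), and posterior members higher in 5 of 7 (median 0.082). All 3 members of paralog 5 and all 3 of paralog 6 were lower in mutant cells, and their summed FPKM was 0.801 and 0.844 of that in ET-1 wild type. All 3 members of paralog 3 and both of paralog 2 were higher. Of these, Hoxa3, Hoxb3, Hoxd3 and Hoxb2 are among the genes named above as uncertain in origin. Over all genes tested, 57.2% had higher FPKM in the mutant and 42.8% lower. By cluster, medians were -0.10 for HoxA, 0.085 for HoxB, 0.021 for HoxC and -0.013 for HoxD. These are counts of values with no replicate error, chosen in groups by paralog and not tested as groups.

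**Figure D4:**
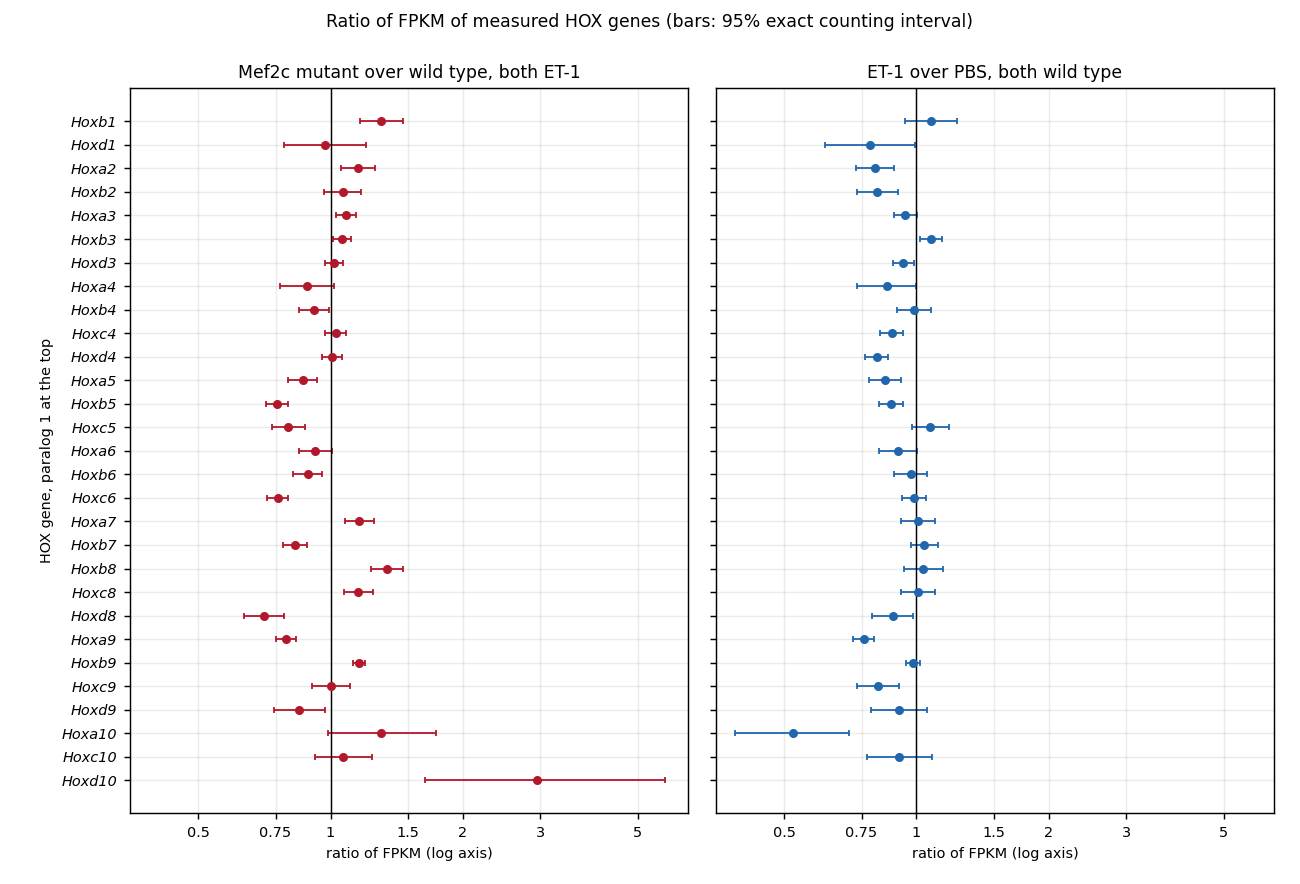
Ratio of FPKM of measured HOX genes on a log axis, Mef2c mutant over wild type with ET-1 on the left and ET-1 over PBS in wild type on the right, ordered from paralog 1 at the top; bars are exact 95% counting intervals. On the left, paralogs 5 and 6 lie below 1 and Hoxd10 stands apart at 2.95. On the right, the points of all members of paralogs 2, 4, 6, 9 and 10 with an interval lie below 1.

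The second comparison asks what ET-1 changed in wild-type cells. Again no HOX gene passed: 0 of 29 members tested were called, where 0.390% of 15395 genes were called higher and 0.143% lower with ET-1. The smallest adjusted p was 0.832, for Hoxa9. At an unadjusted p under 0.05 in the authors' deposited table, 1 member was lower and 0 higher, or 3.45% and 0%, against 2.01% and 2.49% of all genes tested. Hoxd10 was below 1 FPKM in both groups and was not tested.

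Although no member was called, FPKM was lower with ET-1 than with PBS in 21 of 29 members, or 72.4%, and higher in 8, where 47.7% of all genes were lower and 52.3% higher. The median log2 fold was -0.11, against 0.012 over all measured genes. Over all 30 measured members, with the untested Hoxd10 counted in, 7 of 7 posterior, 10 of 15 central and 5 of 8 anterior ones had lower FPKM, as did 6 of 6 of HoxD and 7 of 9 of HoxA. The counting interval lay below 1 in 13 members and above 1 in 2, or 44.8% and 6.90%, against 21.7% and 25.9% of all genes. More reads make a narrower interval, and the median was 19.3 FPKM for members and 6.56 for all genes in ET-1 wild type. The interval shares are therefore not at like depth. HOX genes of a cluster share regulation and the same 2 groups of cells, so these members are not independent of each other.

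On the scale of log2(FPKM + 1), by which members are named, the largest differences were at paralogs 9 and 10 of HoxA. Hoxa10 had a ratio of ET-1 over PBS of 0.524 (0.387 to 0.703), on 69 pooled reads with ET-1 and 143 with PBS. Its p in the authors' deposited table was 0.077 before adjustment. Hoxa9 had a ratio of 0.758 (0.717 to 0.803), with a p of 0.0238 in the authors' deposited table. Hoxa2 (0.805, interval 0.727 to 0.890), Hoxd4 (0.812, interval 0.765 to 0.862) and Hoxb2 (0.815, interval 0.732 to 0.907) followed on that scale, with p in the authors' deposited table of 0.123, 0.193 and 0.255. Hoxd1, at a lower level, had a ratio of 0.785 (0.621 to 0.992). With ET-1, 5 of 9 tested crest markers were called higher, and the summed level of all 10 was 284 FPKM in mutant cells, 270 in ET-1 wild type and 178 in PBS wild type. Of all genes tested, 0.390% were called higher with ET-1. In the mutant, 1 of 9 tested crest markers was called higher and 1 lower, where 1.18% and 3.75% of all genes were. Tcfap2b, a transcription factor gene of crest, had a ratio of 1.52 (p = 0.0050), and Ets1, another, a ratio of 0.761 (p = 0.0372), both with Benjamini-Hochberg adjustment of the authors' deposited table. The part of these shifts in the HOX values was not tested.

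The 2 comparisons share the ET-1 wild-type cells, so a low value there enters both with opposite sign. Ratios are given side by side, of mutant over ET-1 wild type and then of ET-1 over PBS. Hoxa9 was lower in both, at 0.792 in the mutant and 0.758 with ET-1. Hoxc6 was at 0.758 in the mutant and 0.989 with ET-1, and Hoxb8 at 1.35 and 1.04. Hoxb5 was at 0.757 and 0.874, and Hoxd8 at 0.706 and 0.882. Hoxa10 was at 1.302 and 0.524, higher in the mutant and lower with ET-1, but on few reads.

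The promoters of members were read for the consensus of MEF2, the factor deleted here, in the window from 250 bases before to 50 after the start site (RefSeq, GRCm38.p6). A promoter was in the table for 22 of 39 members. The MEF2 consensus, searched on both strands, was in 1 of the 22 (4.55%), against 1.86% of 32851 promoters of all genes. That promoter is of Hoxd4, at chr2:74721728-74722027 on the plus strand, and is shown with the match in capitals, whose first base lies 13 bases before the start site.
Hoxd4: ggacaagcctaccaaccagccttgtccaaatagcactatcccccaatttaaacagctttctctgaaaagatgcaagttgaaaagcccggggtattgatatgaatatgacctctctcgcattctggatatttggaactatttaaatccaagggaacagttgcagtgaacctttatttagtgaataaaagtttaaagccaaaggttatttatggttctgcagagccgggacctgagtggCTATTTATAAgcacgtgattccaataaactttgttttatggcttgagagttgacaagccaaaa
A match is a run of letters and not a bound site. Hoxd4 had a ratio of mutant over ET-1 wild type of 1.01 (0.954 to 1.06), and the letters were not found in this window for the other 21. Promoters of the 17 measured members in the table had a median observed over expected CpG of 0.593, those of the 5 other members 0.787, and all promoters 0.384.

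Other transcripts lie between the HOX genes or overlap their models, and they too held no call. Of 25 other models inside the 4 clusters, 17 were measured and 0 were called in either comparison. Among all genes tested, 1.18% were called higher and 3.75% lower in the mutant, and 0.390% and 0.143% with ET-1. At those shares, 0 calls among 17 models say little of the list. In the mutant, 12 of the 17 had lower FPKM than in ET-1 wild type, and 4 of them had an unadjusted p under 0.05 in the authors' deposited table, all lower, where 42.8% of all genes were lower and 7.12% were lower at such a p. The smallest adjusted p there was 0.265, for 1700109F18Rik, which stood at 27.1 FPKM in mutant cells, 35.2 in ET-1 wild type and 36.9 in PBS wild type. That model lies within the span of Hoxd3. Also among those with an unadjusted p under 0.05 were 5730446D14Rik and 5730596B20Rik, which overlap the span of Hoxa3. As strand-specific counting is not stated, reads of such models may not be separate from those of the HOX genes. The model of mir-10b stood at 64.9 FPKM in mutant cells, 48.3 in ET-1 wild type and 74.5 in PBS wild type, on 207 reads in mutant cells, 65 in ET-1 wild type and 109 in PBS wild type. The model of mir-10a stood at 6.59 FPKM in mutant cells, 4.13 in ET-1 wild type and 5.07 in PBS wild type. The model of mir-196a-1 stood at 9.82 FPKM in mutant cells, 14.4 in ET-1 wild type and 8.66 in PBS wild type. These values count longer RNA across the hairpin, which for mir-10b lies within the spans of Hoxd3 and Hoxd4, and not the mature microRNA.

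HOX proteins bind DNA with cofactors of the PBX, MEIS and PREP families, and all 9 genes of that list were measured, with 0 called in either comparison. With 1.18% of all genes called higher and 3.75% lower in the mutant, and 0.390% and 0.143% with ET-1, that count says little of so short a list. The factors that place HOX borders were also read. Of 13 tested axial regulators, 1 was called in the mutant and 0 with ET-1, where 1.18% of all genes were called higher and 3.75% lower in the mutant. Egr2, which drives Hoxa2 and Hoxb2 in the hindbrain, rose to 9.04 FPKM in mutant cells, against 3.82 in ET-1 wild type, with 3.37 in PBS wild type (p = 1.13e-04 with Benjamini-Hochberg adjustment of the authors' deposited table). Gbx2, a homeobox gene of the anterior hindbrain, stood at 8.95 FPKM in mutant cells, 4.73 in ET-1 wild type and 6.30 in PBS wild type. Its p for the mutant, from the authors' deposited table with Benjamini-Hochberg adjustment, was 0.0665, and 0.0497 when only genes of at least 5 FPKM in either group were tested, which would make it a second call. The Egr2 targets Hoxa2 and Hoxb2 had ratios of 1.15 and 1.07 in the mutant and were not called. Egr2 is also a gene of myelinating glia. Aldh1a2, which makes retinoic acid, was the most abundant of the list, at 50.8 FPKM in mutant cells, 36.1 in ET-1 wild type and 35.3 in PBS wild type, and was not called (p = 0.129 with Benjamini-Hochberg adjustment of the authors' deposited table). Cdx1, Cdx2 and Cdx4, which activate central and posterior HOX genes in the tail bud, were not measured, nor were Fgf8 and T.

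Among 21 Polycomb and Trithorax genes, which keep HOX genes off or on, 1 was called in the mutant and 0 with ET-1. Of all genes tested, 1.18% were called higher and 3.75% lower in the mutant, and 0.390% and 0.143% with ET-1. A single call therefore says little of the list as a whole. Ezh1, a histone H3 methyltransferase, fell to 4.80 FPKM in mutant cells, against 7.45 in ET-1 wild type, with 6.43 in PBS wild type (p = 0.0081 with Benjamini-Hochberg adjustment of the authors' deposited table). Ezh2, its paralog and the most abundant gene of the list, stood at 102 FPKM in mutant cells, 94.9 in ET-1 wild type and 92.7 in PBS wild type. Of 8 tested genes that flank the clusters, 0 were called in either comparison, and Cbx5 beside HoxC was the highest at 136 FPKM in mutant cells, 137 in ET-1 wild type and 121 in PBS wild type. Evx1 and Evx2, the homeobox genes at the posterior ends of HoxA and HoxD, were not measured, as paralogs 11 to 13 were not.

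The forward limit of the sample showed in genes of the head that lies ahead of HOX expression. Of 12 anterior head factors, 10 were not measured, among them Otx1, Otx2, Six3, En1 and En2. Pax6 and Lhx5, which the spinal cord also expresses, were measured, with Pax6 at 11.7 FPKM in mutant cells, 10.1 in ET-1 wild type and 13.3 in PBS wild type. Neither was called. Of reported HOX targets and partners, 0 of 9 tested were called in the mutant and 1 of 10 with ET-1. With ET-1, 0.390% of all genes tested were called higher and 0.143% lower, and in the mutant 1.18% higher and 3.75% lower. Cdh6, a cadherin of hindbrain and early crest, rose with ET-1 to 34.3 FPKM in wild type, against 21.3 with PBS, and stood at 32.8 in mutant cells (p = 0.0301 for ET-1 with Benjamini-Hochberg adjustment of the authors' deposited table). Slit2 was the most abundant of that list, at 66.9 FPKM in mutant cells, 70.7 in ET-1 wild type and 71.8 in PBS wild type.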

How the data were processed

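RNA was measured in 9 samples, 3 in each of 3 groups. Per the labels' protocols, RNA was extracted with a column kit for small samples, amplified with NuGEN Ovation V2 and made into barcoded libraries. The submitters' processing notes name TopHat 1.3.1, Cufflinks 1.3.0, Cuffdiff and build mm9; settings, read length and strandedness are not given in these sources. Per the file headers, the authors computed a single FPKM per gene and group and a p-value per comparison, which was unadjusted as far as the values show. The number of columns of other samples was 0. A few items, sequences among them, are not reported here.

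Whole numbers with a p of 1 were counted as not measured. Benjamini-Hochberg adjustment of the authors' deposited p-values ran over every gene that had FPKM in both groups and reached 1 FPKM in one of them, and genes were called under 0.05. How far those p-values hold the spread between samples, and whether samples were separate embryos, is not known. Log2 folds are of FPKM + 1, which understates low genes, and ratios are of FPKM. Group values in place of sample values were provided for in the planned test, so it was kept.

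Pooled reads follow from the depth and a model length that makes all 3 groups whole, nearest to the exon length in GENCODE M21. A wrong multiple would alter the width of an interval and not its ratio. Intervals are exact (Clopper-Pearson for ratios, Poisson for levels). Depth recovery, adjustment and intervals were tested on simulated data. Named in full were called members and, in each comparison, the 5 members of largest absolute log2 fold, plus the members with an unadjusted p under 0.05, which were added after their values were seen. Of other lists, called members and the most abundant member were named, and the remaining genes named from them were chosen after their values were seen. Members and lists were chosen with earlier results of these data known. Python 3.11.15, scipy 1.17.1 and pandas 2.3.3 were used. Alternatives were other filters, p without adjustment, a fold limit, another pseudocount, median centring, log sums and other class limits.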

Additional observations from a re-analysis of the deposited data

How the results depend on the processing

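The count of called HOX genes was 0 in both comparisons under every filter tried (none, 1 or 5 FPKM) and with a 1.5-fold limit added. Without adjustment of the deposited p it was 4 in the mutant and 1 with ET-1. The median log2 fold in the mutant was near 0 under all settings and turned from 0.0055 to -0.040 when centred on the median of all genes, while with ET-1 it stayed between -0.13 and -0.098. Centring moved ratios of named members by a few percent, and all stayed within their counting intervals.

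Shares by axial class moved with the scale and the class limits. As sums of log2(FPKM + 1), paralogs 1 to 3 made up 25.3% in mutant cells, 24.6% in ET-1 wild type and 24.5% in PBS wild type, paralogs 4 to 8 made up 56.2% in mutant cells, 57.4% in ET-1 wild type and 56.8% in PBS wild type, and paralogs 9 to 13 made up 18.5% in mutant cells, 18.0% in ET-1 wild type and 18.7% in PBS wild type. With classes of paralogs 1 to 4, 5 to 9 and 10 to 13 of summed FPKM, the anterior share was 34.6% in mutant cells, 33.1% in ET-1 wild type and 34.0% in PBS wild type, the central share 64.1% in mutant cells, 65.8% in ET-1 wild type and 64.8% in PBS wild type, and the posterior share 1.31% in mutant cells, 1.09% in ET-1 wild type and 1.22% in PBS wild type. Both follow from how the sums are built. The posterior share of mutant cells was above that of PBS wild type in FPKM and below it in log sums. Cluster shares moved likewise, with HoxB the largest on either scale.

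No paired analysis was possible because the table held a single value per group and the sample numbers are not shared between groups. Leaving out a sample was not possible for the same reason. Depth limits Hoxd10 and Hoxa10 most, with 13 to 91 reads for Hoxd10 and 69 to 213 for Hoxa10. For members listed at 0, nothing is said of expression below detection.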
